A study of Homo sapiens with 24 samples.

Results

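VEGFA and BNIP3 are a pair of known targets of the hypoxia-inducible factors (HIF) that lay on opposite sides of zero after metformin in 4 human acute myeloid leukaemia (AML) lines. They are 2 of the 14884 genes named by at least 1 row of the array table, and of 10641 that passed the filter on low values. Each is named by 1 row, and both passed. The pair was selected on its metformin change, so those changes are given as a description with no test. Differences between untreated lines, which the choice did not use, were tested. Differences between lines in the metformin change were tested too. Their p-values are not independent of the choice, since the change in each line was known.

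Gene expression was measured on 24 Affymetrix arrays, 3 for each of 8 groups. HL60, KG1a, MOLM14 and U937 cells were exposed to 10 mM metformin for 24 h or left untreated. Metformin is a biguanide antidiabetic drug, which the submitters describe as blocking respiratory complex I. All are established lines kept in culture at exponential growth: HL60 is promyelocytic, KG1a is immature and CD34-positive, and MOLM14 and U937 are monocytic. By the labels, oxidative phosphorylation (OXPHOS) is high in KG1a and MOLM14 and low in HL60 and U937, and a second label calls both high lines low once treated. Each class therefore rests on 2 lines. Separate cultures are not stated, so p-values measure the spread between these arrays, which may be technical, and the number of arrays limits the precision.

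HIF is a transcription factor with an alpha subunit that prolyl hydroxylases mark for destruction when oxygen is plentiful, through the ubiquitin ligase component VHL. When oxygen is short, the alpha subunit persists, pairs with ARNT, and switches on genes of blood vessel growth, glycolysis and mitochondrial turnover. VEGFA is the secreted growth factor that drives vessel formation through the receptors KDR and FLT1. It is also a known target of ATF4, the transcription factor of the integrated stress response, which reacts to amino acid shortage and to mitochondrial damage. BNIP3 is a protein of the outer mitochondrial membrane that serves as a receptor for mitophagy, the removal of mitochondria by autophagy, and its relative BNIP3L does the same.

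VEGFA lies on chromosome 6 at 43770211 to 43786487 of GRCh38.p14 and has 20 RefSeq transcripts. BNIP3 lies on chromosome 10 at 131967684 to 131981923 and has 1 RefSeq transcript. One array row stands for all transcripts of a gene here, so VEGFA isoforms were not separated. The table of RefSeq promoters holds BNIP3 and DDIT4, and both windows are shown because BNIP3 was lower after metformin while DDIT4, a HIF target on the ATF4 list too, was the HIF target that rose most on the mean of the lines. Each window is the 250 bases before the gene's start, read 5′ to 3′ on the gene's strand. Capitals mark the HIF core motif, ACGTG or GCGTG, on either strand, so a match on the opposite strand reads CACGT or CACGC. The BNIP3 window is chr10:131981924-131982173 on the minus strand and the DDIT4 window is chr10:72273674-72273923 on the plus strand.
BNIP3: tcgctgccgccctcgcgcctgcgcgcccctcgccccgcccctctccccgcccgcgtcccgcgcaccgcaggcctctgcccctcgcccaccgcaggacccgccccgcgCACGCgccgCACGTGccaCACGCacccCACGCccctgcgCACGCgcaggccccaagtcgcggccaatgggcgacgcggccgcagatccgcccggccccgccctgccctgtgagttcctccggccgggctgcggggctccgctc
DDIT4: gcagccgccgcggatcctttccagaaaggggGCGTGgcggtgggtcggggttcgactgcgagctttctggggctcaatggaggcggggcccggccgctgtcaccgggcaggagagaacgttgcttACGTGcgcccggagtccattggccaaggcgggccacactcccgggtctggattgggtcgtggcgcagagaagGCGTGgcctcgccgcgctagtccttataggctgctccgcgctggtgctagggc
The BNIP3 window held the core at 6 positions, all between 100 and 143 bases before the start. The block CACGTG in it is an E-box that reads ACGTG on both strands and so counts as 2 of the 6. The DDIT4 window held 3 positions spread from 49 to 219 bases before the start. Among 35116 RefSeq windows of this length, 43.2% held at least 1 position, 7.76% held 3 or more, and 0.646% held 6 or more. CACGTG stood in 6.34% of windows. The BNIP3 window is 81.6% G and C and the DDIT4 window 68.8%, against a median of 58.0%, and the core motif contains the pair CG, so a count of matches is a description of the letters alone. The ATF4 composite element, searched as TGATGNAA on both strands, was in neither window and in 3.14% of all windows.

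The arrays were close to one another, with correlations of 0.983 to 0.993 within groups and medians of 3.99 to 4.08. Untreated HL60 replicate C and untreated U937 replicate C had the narrowest distributions, with interquartile ranges of 1.90 and 1.99, and treated U937 replicate A correlated least within its group (0.986 on average). Without these 3 arrays the mean metformin difference was 0.83 for VEGFA and -0.56 for BNIP3 (log2), close to the values below, and each F test kept its side of the threshold. The line labels were checked against markers in untreated cells. CD34 stood at 11.2 in KG1a and at 3.53 to 3.61 in the other lines, FLT3 at 10.4 in MOLM14, and MPO at 12.5 in HL60 and 8.93 in MOLM14. LYZ was high in MOLM14 (9.88) and U937 (9.43), against 7.26 in HL60 and 3.46 in KG1a. CD68 stood at 9.73 in MOLM14 and 8.59 in U937, against 6.32 in HL60 and 5.04 in KG1a. The monocyte marker CD14 lay under 4.02 in all 4 lines. CSF1R, another such marker, read 5.99 in MOLM14 but 4.37 in U937, near KG1a (4.28) and HL60 (4.12). The monocytic label of U937 thus rests on LYZ and CD68 here, and that of MOLM14 on these and CSF1R. AZU1, a granule gene taken as a marker of HL60, was higher in MOLM14 (10.1) and U937 (8.70) than in HL60 (6.97). PECAM1, which myeloid cells share with endothelium, reached 6.65 in MOLM14, and ELANE, CD33, CD3E and CDH5 are not analysed here. All values are log2 normalized signals, and the median of all values is 4.02, near which differences may be compressed. Since each array holds RNA from a whole culture, fewer cells expressing a gene and less RNA per cell cannot be told apart.

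VEGFA read higher in metformin-treated than in untreated cells of all 4 lines. The difference ran from 1.61-fold in MOLM14 to 3.21-fold in HL60, and no fold is given for KG1a, which lay near the median of all values. In HL60 the metformin arrays read 7.73, 7.66 and 7.86, against 6.24, 6.17 and 5.80 in untreated cells. In U937 they read 7.79, 7.80 and 7.90 with metformin, against 6.95, 7.11 and 6.92 untreated. In both lines the groups stood well apart, with a gap between the nearest arrays of 1.43 in HL60 and 0.67 in U937. The MOLM14 arrays read 7.43, 7.43 and 7.39 with metformin, against 6.71, 6.66 and 6.83 untreated. KG1a was the exception in level: its metformin arrays read 4.33, 4.24 and 4.38, against 3.91, 4.11 and 4.17 untreated. KG1a thus stayed near the median of all values in both states, and its groups were separated by a gap of 0.07.

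The VEGFA difference, metformin minus untreated, was 1.68 ± 0.10 (log2, SE, 3 arrays per group) in HL60 and 0.83 ± 0.10 in U937. It was 0.69 ± 0.10 in MOLM14 and 0.25 ± 0.10 in KG1a, and averaged 0.86 ± 0.05 over the lines, a 1.82-fold difference. The SE of this average leaves out the spread between lines, whose values ran from 0.25 to 1.68. Ranked from the highest difference among 10641 genes, VEGFA was number 14 in HL60, 24 in MOLM14, 33 in U937 and 452 in KG1a, where both states lay near the median of all values and the rank is uncertain. Without untreated HL60 replicate C, whose VEGFA was the lowest of its group, the HL60 difference was 1.55.

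BNIP3 was lower in metformin-treated cells of all 4 lines, by 1.29-fold in U937 to 1.54-fold in KG1a. In KG1a the metformin arrays read 6.58, 6.79 and 6.87, against 7.30, 7.37 and 7.44 in untreated cells. In MOLM14 they read 7.27, 7.17 and 7.40, against 7.92, 7.77 and 7.84 untreated. All metformin arrays of these lines lay below all untreated ones, with gaps of 0.43 and 0.37. HL60 gave 7.35, 7.35 and 7.31 with metformin, against 8.16, 7.81 and 7.68 untreated. U937 gave 6.93, 6.78 and 6.91 with metformin, against 7.21, 7.31 and 7.18 untreated. The groups did not overlap there either, although untreated HL60 was the most spread of the 8 BNIP3 groups (SD 0.25, n = 3), against 0.03 for treated HL60.

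The BNIP3 difference was -0.62 ± 0.10 in KG1a, -0.57 ± 0.10 in MOLM14, -0.54 ± 0.10 in HL60 and -0.36 ± 0.10 in U937 (log2, SE, 3 arrays per group). The mean of the lines was -0.52 ± 0.05, with an SE from arrays and not from lines, so BNIP3 was 1.44-fold lower with metformin. Ranked from the lowest difference, BNIP3 was number 19 in KG1a, 48 in MOLM14, 180 in HL60 and 641 in U937. KG1a thus held the smallest of the 4 VEGFA differences, at a level near the median of all values. It also held the largest of the 4 BNIP3 differences, although these were not shown to differ between lines. Untreated HL60 replicate A was the highest BNIP3 array of its group, and without it the HL60 difference was -0.41.

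**Figure D1:**
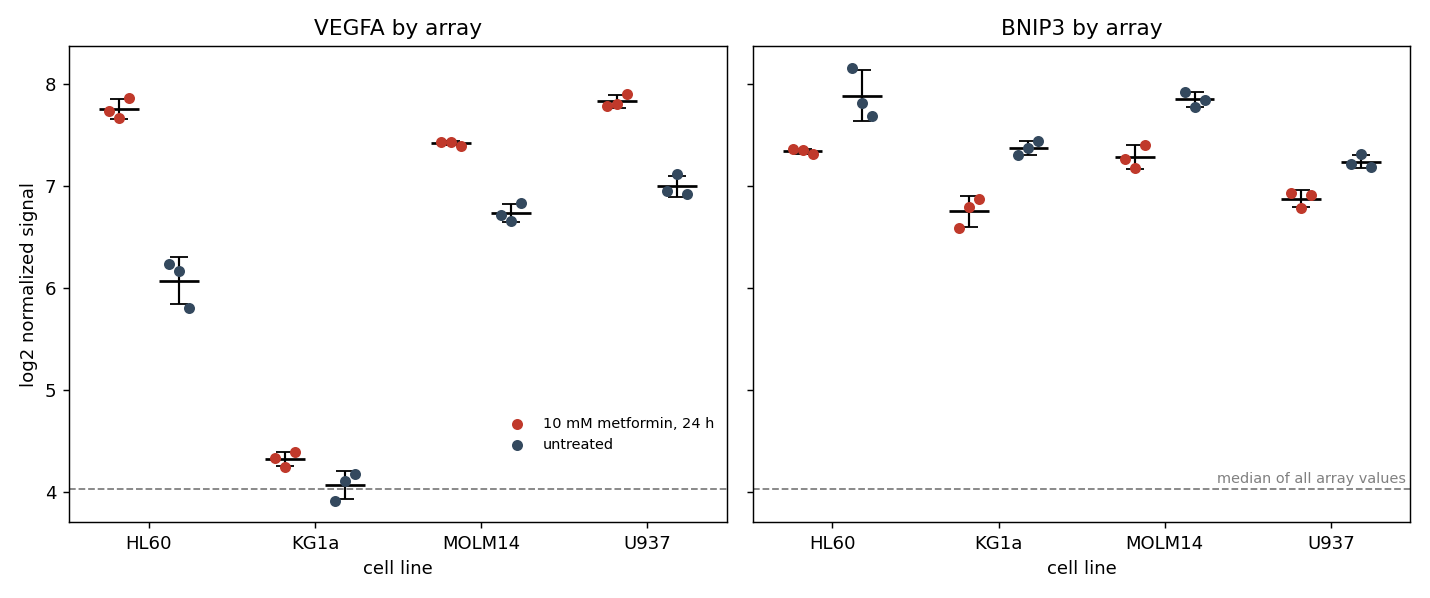
Log2 normalized signal of VEGFA (left) and BNIP3 (right) on each of the 24 arrays, with metformin left of untreated in each line. Points are arrays, wide bars are group means, whiskers are ± SD (n = 3), and the dashed line is the median of all array values (4.02). Metformin arrays lie above the untreated ones for VEGFA and below them for BNIP3 in every line, and VEGFA of KG1a lies near the dashed line.

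Arrays of the metformin and untreated groups did not overlap for VEGFA in 4 of 4 lines (metformin higher) and for BNIP3 in 4 of 4 (metformin lower). In single lines such a separation was common: 37.2% of genes were separated in either direction in HL60, 21.0% in KG1a, 26.4% in MOLM14 and 29.9% in U937. Across all lines, 124 genes had the VEGFA pattern of 4 separations upward and 187 had the BNIP3 pattern of 4 downward. Since the pair was selected on this contrast, nothing is read from these counts.

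**Figure D2:**
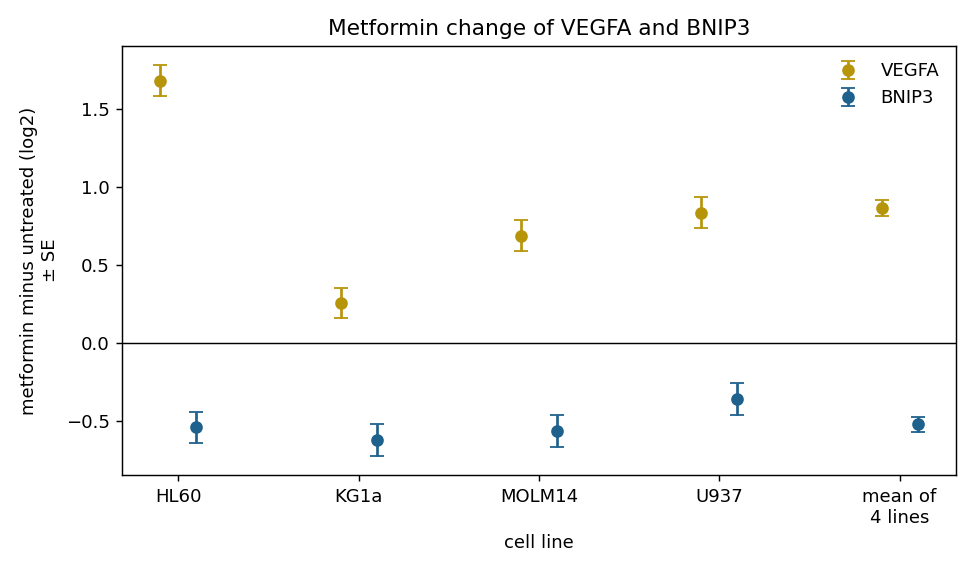
Metformin minus untreated difference of VEGFA and BNIP3 in each line and averaged over the 4 lines (log2, whiskers ± SE). The whiskers of the average leave out the spread between lines. VEGFA runs from 0.25 in KG1a to 1.68 in HL60, whereas BNIP3 stays between -0.62 and -0.36.

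In these arrays the VEGFA difference varied with the line, and that of BNIP3 was not shown to. An F test across the lines (limma, adjusted over 10641 genes) gave an adjusted p of 1.1e-06 for VEGFA and 0.529 for BNIP3, where 10.0% of genes passed. HL60 exceeded KG1a in its VEGFA difference by 1.43 ± 0.14 (adjusted p = 1.31e-07), a comparison that 8.47% of genes passed. HL60 also exceeded MOLM14 by 0.99 ± 0.14 (adjusted p = 5.06e-05, passed by 4.81% of genes). Its excess over U937 was 0.85 ± 0.14 (adjusted p = 0.000459, passed by 4.67%). HL60 therefore had a larger VEGFA difference than each of the other lines by limma's test. The change in each line was known when the pair was chosen, so these p-values describe the arrays and are not independent support.

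Among the other lines, the VEGFA difference of KG1a was below that of U937 (KG1a minus U937 -0.58 ± 0.14, adjusted p = 0.0246, passed by 2.27% of genes). That call rests on single arrays: leaving out any 1 of 6 of the 12 arrays involved took the adjusted p up to as much as 0.074. These were untreated KG1a replicates B and C, treated KG1a replicate B, untreated U937 replicates A and C, and treated U937 replicate C. KG1a against MOLM14 did not pass (-0.43, unadjusted 95% interval -0.72 to -0.15, adjusted p = 0.175, where 1.05% of genes passed). MOLM14 against U937 did not pass either (-0.15, 95% interval -0.43 to 0.14, adjusted p = 0.69, where 2.11% passed). KG1a VEGFA lay only 0.30 with metformin and 0.04 untreated above the median of all values, and the part of this in its small difference was not tested.

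For BNIP3, none of the 6 line pairs passed for the size of the metformin difference in limma's test, with adjusted p from 0.39 to 0.962. The largest gap was KG1a minus U937, at -0.26 (95% interval -0.56 to 0.03), which has an unadjusted p of 0.0779. The 95% intervals of the 6 pairs reached from -0.56 to 0.37, so they do not show that the lines responded alike, and 0 pairs had an unadjusted p under 0.05.

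Between the OXPHOS classes, the VEGFA difference was smaller in the high lines (KG1a and MOLM14) than in the low lines (HL60 and U937) (high minus low -0.79 ± 0.10, limma adjusted p = 1.15e-05, passed by 6.69% of genes). Without HL60 it was -0.36 (adjusted p = 0.0657), and without KG1a it was -0.57 (adjusted p = 0.0152). With 2 lines a class, the class and the single lines cannot be told apart. The class difference for BNIP3 was -0.14 ± 0.10 (95% interval -0.35 to 0.07) and did not pass (limma adjusted p = 0.448).

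The untreated lines differed far more in VEGFA than in BNIP3. VEGFA of untreated cells averaged 4.06 ± 0.14 in KG1a, 6.07 ± 0.23 in HL60, 6.73 ± 0.09 in MOLM14 and 6.99 ± 0.11 in U937 (SD, n = 3 each). The span of 2.93 between the outer lines exceeded that of 94.0% of genes, whose median span was 0.76. The F test over untreated lines gave a limma adjusted p of 1.47e-18, though 83.2% of genes passed it. In limma's test KG1a was below each other line: KG1a minus U937 was -2.93 (adjusted p = 1.23e-18), KG1a minus MOLM14 was -2.67 (adjusted p = 8.2e-18) and HL60 minus KG1a was 2.00 (adjusted p = 3.56e-15). Untreated KG1a lay near the median of all values, with replicate A (3.91) under it, so these sizes may be compressed and no fold is given. Those line pairs differed for 61.9%, 61.1% and 57.4% of genes.

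Among the other lines, untreated VEGFA was lower in HL60, with HL60 minus MOLM14 at -0.66 (adjusted p = 2.73e-06) and HL60 minus U937 at -0.92 (adjusted p = 1.47e-08) in limma's test, where 56.6% and 55.9% of genes passed. MOLM14 and U937 are neighbours at the top of the order. Their difference of -0.26 passed narrowly (limma adjusted p = 0.0263, with 55.7% of genes passing). It did not pass without untreated MOLM14 replicate A (0.0654), MOLM14 replicate B (0.0973) or U937 replicate B (0.128), these being limma adjusted p-values.

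With metformin the order of VEGFA levels was KG1a (4.32 ± 0.07), MOLM14 (7.42 ± 0.02), HL60 (7.75 ± 0.10) and U937 (7.83 ± 0.06; SD, n = 3 each). HL60 moved past MOLM14, and its treated arrays (7.66 to 7.86) overlapped those of U937 (7.79 to 7.90), whereas their untreated arrays did not overlap. The span between the outer lines was 3.51 with metformin, against 2.93 untreated.

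BNIP3 in untreated cells averaged 7.24 ± 0.07 in U937, 7.37 ± 0.07 in KG1a, 7.85 ± 0.08 in MOLM14 and 7.88 ± 0.25 in HL60 (SD, n = 3 each). The span of 0.65 was larger than that of 42.0% of genes and below the median span of 0.76. The F test over untreated lines gave a limma adjusted p of 1.34e-06, though 83.2% of genes passed it. The lines fell into a lower and an upper pair. HL60 was above U937 by 0.65 (adjusted p = 5.65e-06) and above KG1a by 0.51 (adjusted p = 0.000106) in limma's test. MOLM14 was above U937 by 0.61 (adjusted p = 1.21e-05), and KG1a minus MOLM14 was -0.47 (adjusted p = 0.000226). In that order, 55.9%, 57.4%, 55.7% and 61.1% of all genes passed these comparisons. Within the pairs, HL60 minus MOLM14 was 0.04 (95% interval -0.17 to 0.24, adjusted p = 0.783) and KG1a minus U937 was 0.14 (95% interval -0.07 to 0.34, adjusted p = 0.251), and their arrays overlapped. With metformin the means were 6.75 ± 0.15 in KG1a, 6.87 ± 0.08 in U937, 7.28 ± 0.11 in MOLM14 and 7.34 ± 0.03 in HL60, a span of 0.59.

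By class, untreated VEGFA was lower in the high OXPHOS lines (high minus low -1.13 ± 0.07, limma adjusted p = 3.73e-13), where 61.9% of genes passed. This mixes KG1a, the lowest line, with MOLM14, the second highest. Without KG1a the difference turned to 0.20 (adjusted p = 0.0531). BNIP3 showed a class difference of 0.05 ± 0.07 (95% interval -0.10 to 0.20, limma adjusted p = 0.572). Each class holds 1 line of the upper and 1 of the lower BNIP3 pair, and the difference ranged from -0.27 without U937 (adjusted p = 0.0138) to 0.37 without HL60 (adjusted p = 0.000255).

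The other known HIF targets were split too, with more lower than higher. Of 66 listed besides VEGFA and BNIP3, 37 had a row and 33 passed the filter. The list was chosen with earlier results of these data known. On the mean of the 4 lines 4 rose, 12 fell and 17 did not pass (limma, adjusted over all genes). A call on this mean can rest on 1 line and does not show that the lines changed alike. The list's median difference was -0.08, against -0.01 for all genes. Over all genes 16.3% rose and 16.1% fell. By line, 5 targets rose and 8 fell in HL60, 0 and 0 in KG1a, 3 and 3 in MOLM14, and 2 and 5 in U937. At an unadjusted p under 0.05 the KG1a counts were 0 higher and 5 lower. The all-gene shares, higher then lower, were 15.5% and 9.56% in HL60, 0.818% and 1.67% in KG1a, 2.48% and 2.57% in MOLM14, and 7.46% and 9.74% in U937.

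The 4 HIF targets that rose with VEGFA were DDIT4, STC2, VLDLR and ANKZF1, and the first 3 are also on the list of ATF4 targets. DDIT4, an inhibitor of the growth kinase mTORC1, rose by 1.27 ± 0.06 on the mean of the lines (limma adjusted p = 4.95e-14). STC2, a secreted glycoprotein, rose by 0.91 ± 0.06 (adjusted p = 2.06e-11), and VLDLR, a lipoprotein receptor, by 0.70 ± 0.04 (adjusted p = 8.57e-12). In HL60 these 3 genes rose by 2.69, 2.95 and 1.59. In KG1a DDIT4 read -0.07 at levels of 5.75 with metformin and 5.83 untreated, and did not pass. STC2 and VLDLR lay under 4.02 in both states of KG1a, so their readings of -0.08 and -0.07 say little about a change there. STC2 also lay under 4.02 in both states of U937 and read 0.09, and its mean comes mostly from HL60. ANKZF1, which acts in ribosome quality control, rose by 0.47 ± 0.06 (adjusted p = 1.04e-06). In single lines it passed in HL60 (1.22), and it read 0.19 in KG1a, 0.23 in MOLM14 and 0.26 in U937. It was named after its value was seen.

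The HIF targets that fell with BNIP3 included 7 of the 9 tested genes of glucose and glycogen use, against 16.1% of all genes falling. Of the 9, 0 rose, also at an unadjusted p under 0.05. The 7 were HK1, TPI1, GAPDH, PGK1, PGAM1, LDHA and GYS1, and the median of the 9 was -0.20. By line, 6 of the 9 fell in HL60 and 3 in U937, but 0 in MOLM14 and 0 in KG1a. The all-gene shares that fell there were 9.56%, 9.74%, 2.57% and 1.67%. At an unadjusted p under 0.05, 2 fell in MOLM14 and 2 in KG1a. HK1 (0.07) and GAPDH (0.02) lay above 0 in MOLM14. PGAM1, a glycolytic mutase, fell by 0.61 ± 0.06 (limma adjusted p = 1.2e-07), LDHA, which makes lactate, fell by 0.32 ± 0.06 (adjusted p = 0.000199), and GYS1, the glycogen synthase of muscle and other tissues, fell by 0.31 ± 0.05 (adjusted p = 2.91e-05). In KG1a, where BNIP3 read -0.62, PGAM1 read -0.33, LDHA -0.18 and GYS1 -0.22, and none of these 3 passed. Multigene families with near-identical copies, such as GAPDH, PGK1, PGAM1 and LDHA with their pseudogenes, may share probe signal.

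The remaining 24 HIF targets held the 4 that rose and 5 that fell, shares near the 16.3% and 16.1% of all genes. BNIP3L, the mitophagy receptor related to BNIP3, fell by 0.29 ± 0.05 on the mean of the lines (limma adjusted p = 5.46e-05). In single lines it passed in MOLM14 (-0.52, adjusted p = 0.0019) and read -0.26 in HL60, -0.25 in KG1a and -0.14 in U937. MIF, a cytokine, fell by 0.26 ± 0.04 (adjusted p = 1.98e-05). TMEM45A, a membrane protein, fell by 0.36 ± 0.05 (adjusted p = 1.34e-05), through MOLM14 with -1.13, since its other lines lay under 4.02 in both states. ERO1A and ZNF395 fell as well.

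**Figure D3:**
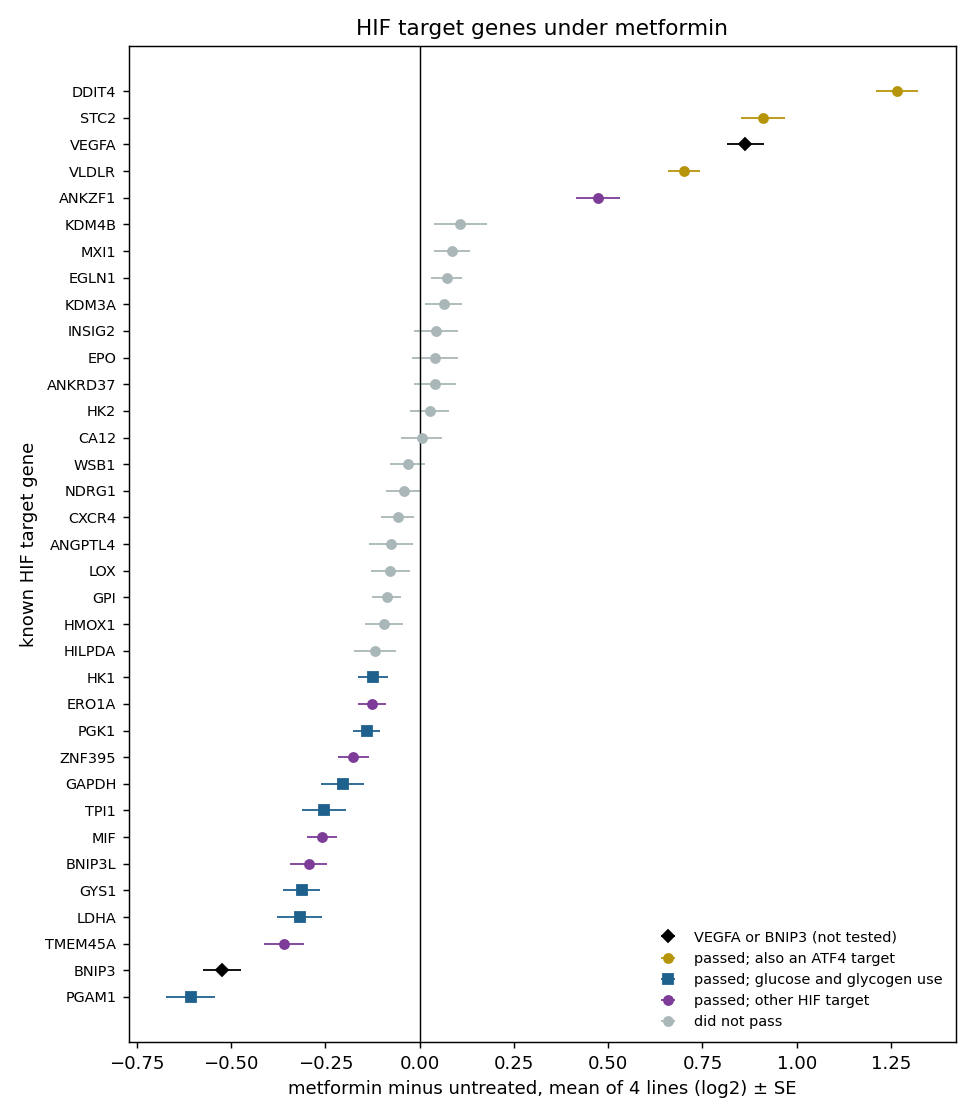
Metformin minus untreated difference, averaged over the 4 lines, of the 33 tested HIF targets with VEGFA and BNIP3 added (log2, whiskers ± SE). The whiskers leave out the spread between lines. Colours and shapes give the class of each gene and whether it passed, and VEGFA (0.86) stands among 3 genes shared with the ATF4 list while BNIP3 (-0.52) lies between TMEM45A and PGAM1.

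Set apart from the ATF4 list, 1 of 30 tested HIF targets rose and 12 fell. The list of ATF4 targets itself had 20 tested of 37 listed. On the mean of the lines 19 rose and 0 fell, with a median of 0.74, against 16.3% of all genes rising. At an unadjusted p under 0.05 the counts were also 19 and 0. Both lists were chosen with earlier results of these data known, so these counts are a description. Here too a call on the mean can rest on 1 line. GDF15, a secreted stress cytokine, read -0.04 ± 0.07 and did not pass. By line 18 rose in HL60, 15 in U937, 13 in MOLM14 and 4 in KG1a. The share of all genes that rose followed the same order, with 15.5%, 7.46%, 2.48% and 0.818%, so the order is not particular to this list. DDIT3, which encodes the stress factor CHOP, rose by 2.43 in HL60, 1.61 in U937 and 0.68 in MOLM14. In KG1a it lay under 4.02 in both states, and its reading of 0.03 says little about a change. TRIB3, a pseudokinase, rose by 1.67 in HL60, 0.73 in U937 and 0.94 in MOLM14, and read 0.13 in KG1a. ASNS, the asparagine synthetase, and PSAT1, of serine synthesis, did pass in KG1a, by 0.68 (limma adjusted p = 4.74e-05) and 1.23 (adjusted p = 4.27e-11).

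**Figure D4:**
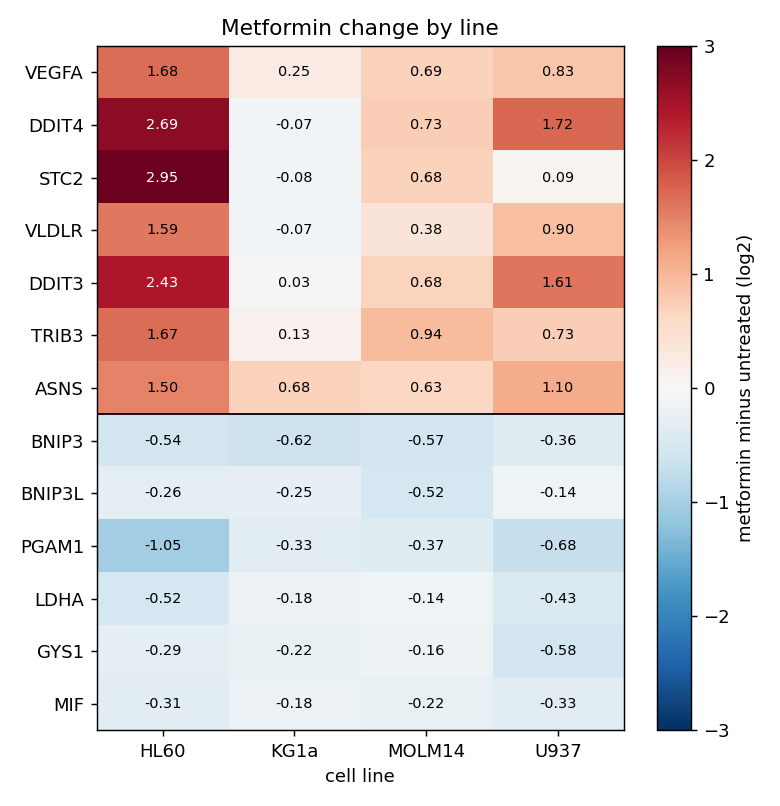
Metformin minus untreated difference (log2) in each line for VEGFA with HIF and ATF4 targets (upper block) and BNIP3 with HIF targets that fell (lower block). Cells carry the value and the colour scale runs from -3 to 3. VEGFA is 0.25 in KG1a, where DDIT4 is -0.07 and STC2, VLDLR and DDIT3 lie under 4.02 in both states, and BNIP3 is -0.36 or lower in every line.

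The tested transcripts of the oxygen-sensing machinery differed by at most 0.17 on the mean of the lines. Of 12 listed genes 5 were tested. CREBBP, a coactivator of HIF, rose by 0.16 ± 0.04 (limma adjusted p = 0.00184). EPAS1, the HIF-2 alpha subunit, fell by 0.17 ± 0.06 (adjusted p = 0.0306), a call that was lost in 12 of 35 recomputations. By line EPAS1 read -0.17 in HL60, -0.39 in KG1a, 0.10 in MOLM14 and -0.21 in U937, and passed in no single line. It lay above the median of all values in MOLM14 and U937 and near or under it in HL60 and KG1a. ARNT, the partner subunit, read -0.01 ± 0.05, and EGLN1, a prolyl hydroxylase that is itself a HIF target, 0.07 ± 0.04, and neither passed. EGLN3 lay under 4.02 in all groups and was not tested. HIF1A, VHL, EGLN2 and HIF1AN are not analysed here, and HIF protein was not measured.

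Among the partners of VEGFA, 5 of 9 listed ligands and receptors were tested and 0 passed on the mean of the lines in limma's test, with 1 higher and 0 lower at an unadjusted p under 0.05. The other ligands VEGFB and VEGFC read -0.08 ± 0.04 and -0.12 ± 0.06, and the receptor FLT1 -0.08 ± 0.05. KDR, the main signalling receptor, lay under 4.02 in all groups. The coreceptor NRP1 rose in HL60 (0.70 ± 0.11, adjusted p = 2.61e-05) and NRP2 rose in U937 (0.30 ± 0.08, adjusted p = 0.013).

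Among the partners of BNIP3, 17 of 20 listed mitophagy genes were tested, and 3 rose and 2 fell on the mean of the lines, shares near the 16.3% and 16.1% of all genes. NLRX1, a mitochondrial NOD-like protein, rose by 0.37 ± 0.05 (limma adjusted p = 1.44e-06). The autophagy adaptors CALCOCO2 and TAX1BP1 rose by 0.29 ± 0.06 (adjusted p = 0.000786) and 0.22 ± 0.04 (adjusted p = 4.43e-05). BNIP3L fell, as above, and GABARAPL2, an ATG8 protein that such receptors bind, fell by 0.17 ± 0.04 (adjusted p = 0.0037). The receptor FUNDC1 (-0.04) and the kinase PINK1 (-0.06) did not pass.

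VEGFA and BNIP3 were nearly uncorrelated over the 24 arrays (Pearson r = 0.09). Their deviations from the group means had r = 0.54. Untreated HL60, the most spread group for each gene, held replicate A high for both and replicate C low for both. These values describe arrays that share lines and treatments. The genes most like VEGFA over the 24 arrays were KDM6B (r = 0.977), PXK (0.971), MYB (0.963), MIR424 (0.959) and VLDLR (0.957). The most opposed were CDK2AP1 (-0.977), MED19 (-0.968) and ERG28 (-0.961). KG1a stands apart in VEGFA, and over the 18 arrays without it these values were 0.85, 0.86, 0.81, 0.71 and 0.69, and -0.86, -0.79 and -0.73. VLDLR, for one, was at 3.41 in untreated KG1a and at 7.31 to 8.28 in the other untreated lines.

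For BNIP3 the most alike were COMMD9 (r = 0.918), EXO1 (0.903), VPS25 (0.886), NUS1 (0.878) and ABT1 (0.876), and the most opposed were FNBP1 (-0.838), PABIR3 (-0.829) and SYCE2 (-0.824). Without KG1a these were 0.90, 0.95, 0.89, 0.89 and 0.86, and -0.79, -0.88 and -0.78. COMMD9, for one, had metformin differences of -0.50 in HL60, -0.35 in KG1a, -0.45 in MOLM14 and -0.30 in U937.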

How the data were processed

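The log2 values were deposited by the authors in 1 table of 53617 rows and 24 arrays. Per the labels' protocols, 250 ng of total RNA was labelled with an Affymetrix whole-transcript kit, and per the submitters' processing notes Partek was used. How background was corrected, and how signals were normalized and summarised, is not given in the sources used. The log2 scale was judged from the range of 1.88 to 14.2. Genes came from the platform annotation: 16098 rows name 1 gene, 0 name several and 37519 are unnamed here. All 16098 gene IDs matched RefSeq (GRCh38.p14), and 0 symbols changed.

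Of several rows for a gene, that with the highest mean stood for it (14884 genes). Genes with no group mean as high as 4.02, the median of the table, were dropped, leaving 10641. Group means of the 8 groups were fitted with limma 3.58.1 in R 4.3.3 (16 residual degrees of freedom), with Benjamini-Hochberg adjustment over 10641 genes and a threshold of 0.05. The line class is KG1a and MOLM14 minus HL60 and U937. Figures used matplotlib 3.10.9 in Python 3.11.15. The calculations were tested on simulated data.

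The members and the lists (HIF targets, HIF machinery, VEGF ligands and receptors, mitophagy, ATF4 targets) were chosen with earlier results of these data known. Genes named are a fixed set, the 3 smallest adjusted p-values in each direction per list, and the 5 highest and 3 lowest correlations per member. Exceptions are genes that make up small counts. No arrays of a group were duplicates, with at most 5 identical rows in a pair. Alternatives were other scalings and filters, a trend in the moderation, a replicate block, and leaving out each array or line. Chosen after seeing the data were the fit without the 3 arrays that stand apart and the class differences with 1 line left out.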

Additional observations from a re-analysis of the deposited data

Results flagged for a closer look

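The metformin difference of VEGFA differed between lines and classes by a test of the difference itself (limma, adjusted over all genes). The change in each line was known when the pair was chosen, so these calls are a description. HL60 minus KG1a was 1.43, HL60 minus MOLM14 was 0.99 and HL60 minus U937 was 0.85. KG1a minus U937 was -0.58, a call lost without any 1 of 6 arrays. The class difference, high minus low OXPHOS, was -0.79, and its adjusted p was 0.0657 without HL60. VEGFA in KG1a lay near the median of all values in both states, and the part of that level in these differences was not tested.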

How the results depend on the processing

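Of 1094 recomputed values 1056 were counted as unchanged and 38 were not. A metformin difference was unchanged if it kept its direction and moved by less than the spread. A test was unchanged on the same side of the threshold, also where a difference that did not pass changed sign. Counts were allowed modest shifts, such as HIF targets that fell going from 12 to 8. With quantile normalization, centred arrays or the replicate block, the VEGFA mean difference stayed above 0 and that of BNIP3 below 0. Leaving out 1 array gave VEGFA means of 0.83 to 0.88 and BNIP3 means of -0.55 to -0.49. The VEGFA mean was 0.59 without HL60 and 1.07 without KG1a, and 1.55 was its HL60 difference with quantile normalization. The untreated class difference of VEGFA turned to 0.20 (adjusted p = 0.0531) without KG1a. That of BNIP3 was 0.37 without HL60, 0.29 without KG1a and -0.27 without U937, all past the threshold. The class difference in the VEGFA response was -0.36 without HL60. These follow from which lines a class holds. HIF targets that fell numbered 12 to 13 without 1 array and 8 to 14 otherwise, the 8 without MOLM14. Over all genes 1730 rose and 1711 fell, against 1564 and 2138 with quantile normalization and 1730 and 1461 with centred arrays.

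Pairing of the samples by replicate letter was not shown, and the check cannot exclude it. Same-letter arrays correlated by -0.06 to 0.15 in their deviations over 12 pairs, 1 of them over 0.1. Of the 12, 6 correlated best with their own letter, among them letters A, B and C of HL60 (0.06, 0.07 and 0.15). With the replicate block the class difference in the VEGFA response stayed at -0.79 (limma adjusted p = 3.69e-05), and 1736 genes rose and 1692 fell. EPAS1 lost its call in 12 recomputations, among them 8 single arrays left out, and the cause was not tested. VEGFA in KG1a lay near the median of all values, and no measure of signal over background was used.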
